A study of Mus musculus with 8 samples.

Results

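Skin of newborn mice that had lost pRb and p53 together was compared with skin that had lost either protein alone. The genes described here are those for which both double-loss arrays lay above, or both below, all 4 single-loss arrays. Of 22626 probe sets other than array controls, 5450 met this rule, or 24.1%. In 2382 of them (10.5%) the double-loss arrays were the highest of the 6 and in 3068 (13.6%) the lowest. The excess of the lower side was smaller after quantile normalization, with 2358 higher and 2645 lower. With 1 probe set taken for each of 12393 genes, 2923 genes met the rule (23.6%), 1343 higher (10.8%) and 1580 lower (12.7%). These 3 shares are the background beside which each count below stands. Membership follows from the measured scores of this comparison, so the counts and differences describe the members and no test is read from them.

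The tested skin was pRb-/-;p53-/-, and it was set against pRb-/-;p53+/+ skin and pRb+/+;p53-/- skin, each with 2 arrays. All mice were newborns of the FVB strain, an albino inbred strain, and the series title places the loss of both proteins in stratified epithelia, the layered lining tissues to which epidermis belongs. Each array carried RNA pooled from 3 animals of the same genotype, extracted from whole skin. The sources used here name neither the driver of the deletion nor the alleles. They do not say either whether the 2 arrays of a genotype carried separate pools, so the p-values rest on a spread between arrays that could be technical only. The 2 control arrays of the series entered neither the choice of members nor the test.

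pRb, the product of Rb1, binds E2F transcription factors and holds back the genes of S phase, and it releases them when cyclin D kinases phosphorylate it. p53 is a transcription factor that halts the cell cycle or drives apoptosis after damage or untimely proliferation. In many tissues loss of pRb alone sets off p53, and loss of both removes that brake as well. Skin around birth builds its hair follicles, which are made of hair shaft and root sheath keratins, contain pigment cells, and grow from rapidly dividing matrix cells.

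Each probe set had been deposited as standardized scores, which average 0 and have an SD of 1 across all 8 arrays. A difference of 1 is therefore 1 SD of that probe set, and no expression level or fold change can be given. Levels of different genes cannot be compared, and the labelled tissue could not be checked against its markers for the same reason. In whole skin, fewer cells of a type and less RNA per cell cannot be told apart. Array medians lay between −0.16 and 0.23. Arrays of the same genotype correlated at r = 0.12 to 0.34 across probe sets, and the highest r between arrays of different genotypes among the 6 was 0.093, which describes these arrays and is not a test. Among 64 array controls, 3 lay apart higher and 8 lower on the double-loss arrays, with a median difference of 0.067.

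The double-loss arrays also stood apart in genes of the sex chromosomes. Xist, the RNA that coats the inactive X chromosome of female cells, scored −1.57 and −1.50 on the double-loss arrays, against 0.68 and 0.80 on the pRb-loss arrays and 0.58 and 0.60 on the p53-loss arrays. Its other 2 probe sets were also apart and lower. Uty, a gene of the Y chromosome, scored 1.15 and 1.51 on the double-loss arrays, against −0.68 and −0.72 on the pRb-loss arrays and −0.72 and −1.17 on the p53-loss arrays, and its other probe set was apart and higher as well. Of 8 measured genes on the Y chromosome, 3 were apart and higher and 0 lower. They were Uty, Eif2s3y and Kdm5d, 2 other probe sets of Kdm5d not being apart, with differences of 0.73 and −0.32. The labels give no sex for the pooled animals. The part of these differences in the results below was not tested.

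Rb1, the gene of pRb, scored −0.55 and −1.90 on the double-loss arrays, against −0.71 and 0.44 on the pRb-loss arrays and 0.50 and 0.22 on the p53-loss arrays. Its double-loss and pRb-loss arrays overlapped, and the difference was −1.34 ± 0.64 (SE, adjusted p = 0.46). The position of its 1 probe set relative to the deleted part was not known, and non-epithelial cells contribute to whole skin, so this value does not check the labels.

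No probe set passed the test across all of them. With limma's linear model on the 6 arrays, without moderation of variances, 0 of 22626 probe sets (0%) had an adjusted p under 0.05 for the double loss minus the mean of the 2 single losses. The smallest adjusted p was 0.058. At unadjusted p below 0.05 there were 3263 probe sets (14.4%), 1339 higher (5.92%) and 1924 lower (8.5%). By the same unadjusted threshold 776 genes were on the high side (6.26%) and 1027 on the low side (8.29%), or 14.5% together. The moderated test of limma had 3845 probe sets below that unadjusted p and called 0 after adjustment. Its 0 cannot be read, because that test called 0% even at changes of 40 within-group SD, as given with the processing. An exact rank test of 2 arrays against 4, counting both directions, cannot give a p below 0.133. Each adjusted p printed below is limma's with Benjamini-Hochberg adjustment over all 22626 probe sets. "Higher" and "lower" below therefore say where the arrays lay, and no gene is said to have passed.

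Many members lay close to the border of the rule. The gap between the double-loss arrays and the nearest single-loss array had a median of 0.42 among members that were higher and 0.45 among those that were lower. It was 0.5 or more in 1050 higher and 1392 lower members, and 1 or more in 340 and 429. Just inside the rule, B3gntl1 had 0.635 as its lower double-loss score and 0.635 as its highest single-loss score, a gap of 0.00010. Just outside it, Ddost had 0.849 and 0.850. On the lower side, the higher double-loss score of Tgs1 was −0.363 and its lowest single-loss score −0.362, while Ryr3 had −0.856 for both and was left out. Without array 1 of the double loss 5989 probe sets were higher and 5594 lower, and without array 2 the counts were 4017 and 5722, since 1 array then meets the rule more easily than 2.

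**Figure D1:**
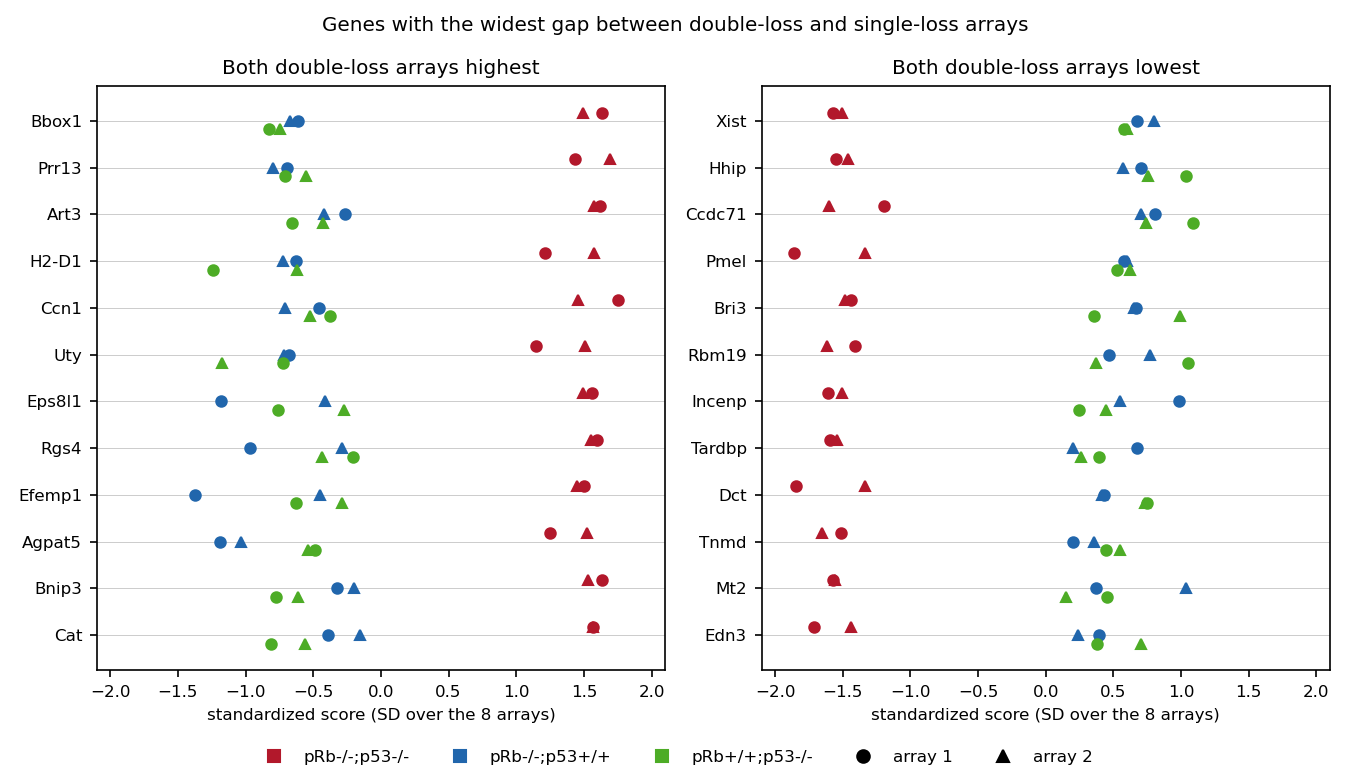
Standardized score (x axis, in SD over the 8 arrays) of the 12 genes with the widest gap upward (left) and the 12 with the widest gap downward (right), 1 gene per row, on each of the 6 arrays; colours mark the genotype, circles array 1 and triangles array 2. The red double-loss points stand clear of all 4 single-loss points in every row, as the choice of these genes requires, by gaps of up to 2.10 upward and 2.08 downward.

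The genes with the widest gaps have varied functions. Upward, Bbox1 came first. It encodes the last enzyme of carnitine synthesis, which makes the carrier of fatty acids into mitochondria. Bbox1 scored 1.63 and 1.49 on the double-loss arrays, against −0.61 and −0.67 on the pRb-loss arrays and −0.82 and −0.75 on the p53-loss arrays, a difference of 2.27 ± 0.061 (SE, adjusted p = 0.079). Both double-loss arrays were high and the 4 single-loss arrays lay close together, as a choice by the widest gap on standardized scores favours. Catalase (Cat), which breaks down hydrogen peroxide, scored 1.57 and 1.57 on the double-loss arrays, against −0.39 and −0.15 on the pRb-loss arrays and −0.81 and −0.56 on the p53-loss arrays. Its other probe set was not apart and differed by 0.73, with 1.63 and −0.64 on the double-loss arrays. The hypoxia-induced mitophagy receptor Bnip3 scored 1.63 and 1.53 on the double-loss arrays, against −0.32 and −0.20 on the pRb-loss arrays and −0.78 and −0.61 on the p53-loss arrays. Agpat5, an acyltransferase of phospholipid synthesis, scored 1.25 and 1.52 on the double-loss arrays, against −1.19 and −1.03 on the pRb-loss arrays and −0.49 and −0.54 on the p53-loss arrays, the pRb-loss arrays being lowest. These metabolic genes differed by 2.05 ± 0.12 for Cat, 2.06 ± 0.082 for Bnip3 and 2.20 ± 0.11 for Agpat5.

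Signalling and adhesion genes were also in that group. Ccn1, a secreted matricellular protein and an immediate early gene, scored 1.76 and 1.46 on the double-loss arrays, against −0.46 and −0.71 on the pRb-loss arrays and −0.37 and −0.53 on the p53-loss arrays. Both of its probe sets were apart, each with a difference of 2.12. Rgs4, which shortens signalling of G proteins, scored 1.60 and 1.55 on the double-loss arrays, against −0.97 and −0.29 on the pRb-loss arrays and −0.21 and −0.44 on the p53-loss arrays, with 2 of 3 probe sets apart. Eps8l1, a relative of the actin regulator Eps8, differed by 2.18 ± 0.32 (SE, adjusted p = 0.22) and Efemp1, an extracellular matrix protein of the fibulin family, by 2.16 ± 0.35 (SE, adjusted p = 0.23). H2-D1, a classical MHC class I heavy chain, scored 1.21 and 1.57 on the double-loss arrays, against −0.62 and −0.73 on the pRb-loss arrays and −1.24 and −0.62 on the p53-loss arrays. It had 9 probe sets, of which 4 were apart and higher and 0 lower, and related class I genes may bind the same probes. Prr13, a proline-rich protein, differed by 2.25 ± 0.11 and Art3, an ADP-ribosyltransferase family member, by 2.04 ± 0.10.

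Downward, Hhip had the widest gap after Xist. It encodes a membrane protein that binds and restrains hedgehog ligands, and hedgehog targets include Hhip itself. Hhip scored −1.55 and −1.46 on the double-loss arrays, against 0.70 and 0.57 on the pRb-loss arrays and 1.04 and 0.76 on the p53-loss arrays, a difference of −2.27 ± 0.11 (SE, adjusted p = 0.13). Its second probe set lay on the same side at −1.19 but was not apart. Edn3, the endothelin that supports melanoblasts, scored −1.71 and −1.44 on the double-loss arrays, against 0.39 and 0.23 on the pRb-loss arrays and 0.38 and 0.71 on the p53-loss arrays. Its second probe set was not apart, with a difference of −0.073. Tnmd, tenomodulin, a membrane protein of tendon and ligament, scored −1.52 and −1.65 on the double-loss arrays, against 0.20 and 0.35 on the pRb-loss arrays and 0.45 and 0.55 on the p53-loss arrays. The metallothionein Mt2 scored −1.57 and −1.56 on the double-loss arrays, against 0.37 and 1.04 on the pRb-loss arrays and 0.45 and 0.15 on the p53-loss arrays, the 4 single-loss arrays all being above 0. The chromosomal passenger protein Incenp, the RNA-binding proteins Tardbp and Rbm19, and Ccdc71 and Bri3 completed the list beside the pigment genes Pmel and Dct described below. Their differences were −2.11 ± 0.17 for Incenp, −1.95 ± 0.17 for Tardbp, −2.18 ± 0.27 for Rbm19, −2.23 ± 0.19 for Ccdc71 and −2.13 ± 0.23 for Bri3, and 2 of the 4 probe sets of Tardbp were not apart.

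**Figure D2:**
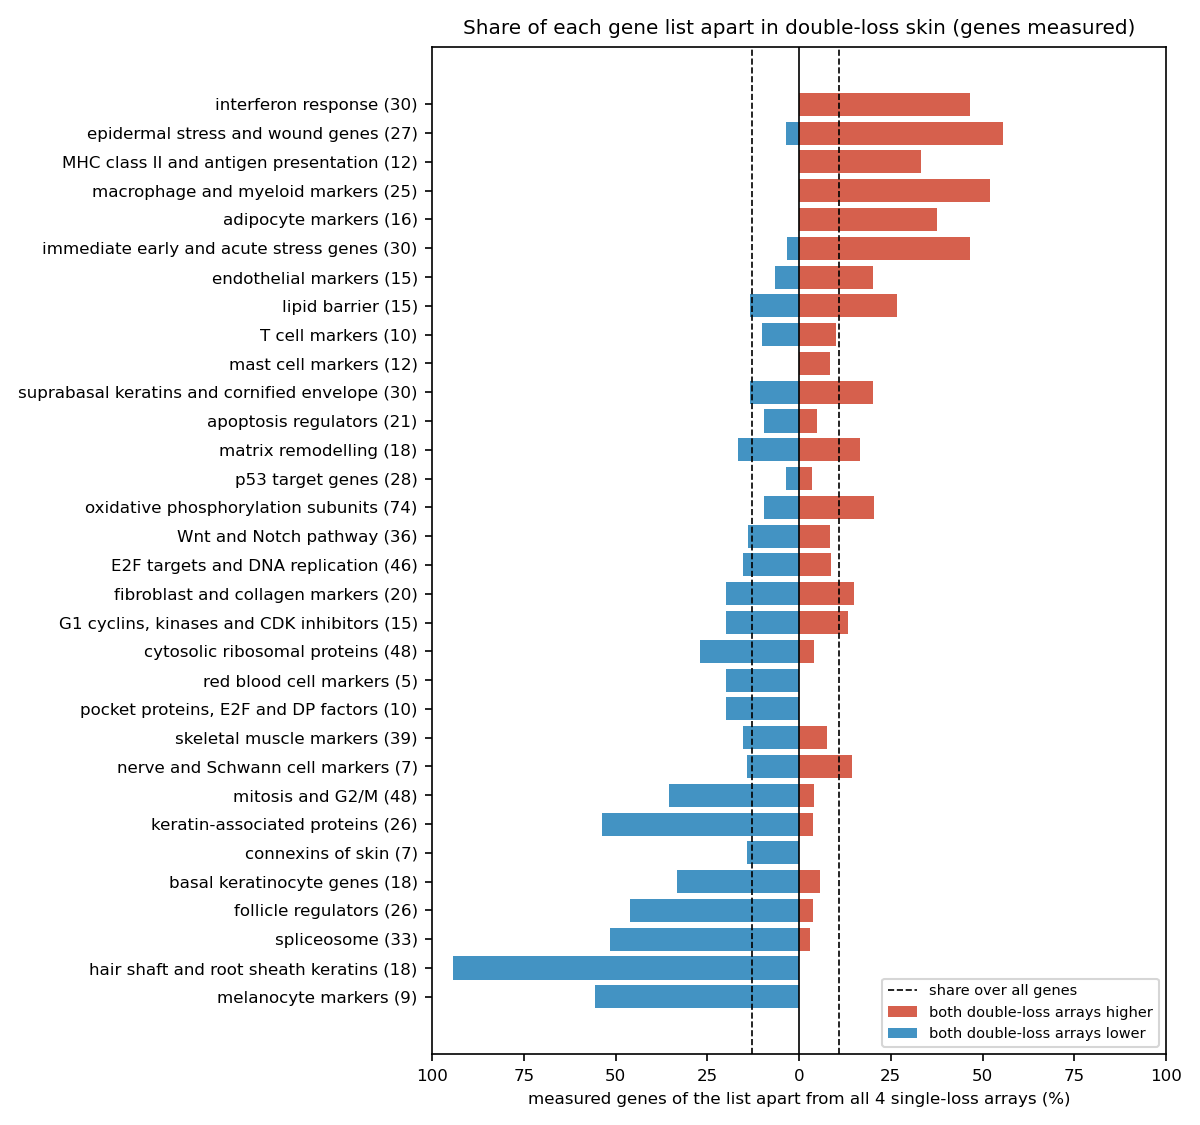
Share of the measured genes of each of 32 gene lists (number measured in parentheses) whose double-loss arrays were both above (red, to the right) or both below (blue, to the left) all 4 single-loss arrays, in percent; dashed lines mark the shares over all genes, 10.8% higher and 12.7% lower. Hair shaft and root sheath keratins (94.4% lower) and melanocyte markers (55.6% lower) stand at the bottom, and stress and wound genes (55.6% higher), macrophage markers (52% higher) and interferon genes (46.7% higher) near the top. Lists run by median difference.

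Keratins of the hair were low almost throughout, with the highest share of members apart among the 32 lists. Of 18 measured hair shaft and root sheath keratins and their partner trichohyalin, 17 were apart and lower with both proteins lost (94.4%, beside 12.7% of all genes) and 0 higher. The member that was not apart was Krt84, with a difference of 1.04 ± 0.53. The median difference was −1.37, beside −0.0062 over all genes. The list averaged −1.32 and −1.01 on the double-loss arrays, against 0.66 and 0.56 on the pRb-loss arrays and −0.38 and −0.30 on the p53-loss arrays. Both double-loss arrays were below the p53-loss arrays, and those were below the pRb-loss arrays. In all 17 members both p53-loss arrays lay nearer to the double loss than both pRb-loss arrays, with median differences of −0.94 from the p53 loss and −1.90 from the pRb loss. At unadjusted p below 0.05 there were 17 lower and 0 higher, beside 8.29% and 6.26% of all genes. Such p counts, here and for the lists below, come from the same scores as the rule and add no support to it.

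Krt25 and Krt71 are keratins of the inner root sheath, the sleeve that guides the growing hair, and they had the widest gaps of the list. The sequences shown are the 250 bases before the start of each gene on its own strand, from RefSeq on GRCm38.p6, because nearly the whole list lay on the same side. Capitals mark a TATA box, searched as TATAAA on both strands, which begins 30 bases before the start of Krt25 and 40 before that of Krt71. Krt25 lies on the minus strand at chr11:99322952-99323201 and Krt71 on the minus strand at chr15:101743098-101743347.
Krt25: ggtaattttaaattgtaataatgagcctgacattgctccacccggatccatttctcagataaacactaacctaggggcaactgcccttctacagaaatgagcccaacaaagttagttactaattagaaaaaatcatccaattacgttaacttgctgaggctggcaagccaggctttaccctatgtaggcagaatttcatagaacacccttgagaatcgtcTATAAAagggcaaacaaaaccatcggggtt
Krt71: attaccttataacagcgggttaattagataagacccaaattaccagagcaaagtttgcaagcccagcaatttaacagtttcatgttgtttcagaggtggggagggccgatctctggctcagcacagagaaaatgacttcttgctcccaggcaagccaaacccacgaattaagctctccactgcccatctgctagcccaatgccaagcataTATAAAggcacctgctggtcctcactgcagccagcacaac
Of the 18 genes 13 were found in the promoter table, and 9 of them (69.23%) held the motif, beside 12.97% of all 27025 promoters. A match is a description of these letters and not a site. Krt25 scored −1.59 and −1.40 on the double-loss arrays, against 0.57 and 0.81 on the pRb-loss arrays and −0.11 and −0.016 on the p53-loss arrays, a difference of −1.81 ± 0.11 (SE, adjusted p = 0.14). Krt71 scored −1.64 and −1.38 on the double-loss arrays, against 0.83 and 0.58 on the pRb-loss arrays and 0.078 and −0.096 on the p53-loss arrays, a difference of −1.86 ± 0.14 (SE, adjusted p = 0.16). Both were lowest with the double loss and highest with the loss of pRb. The hair shaft keratin Krt35 scored −1.51 and −1.33 on the double-loss arrays, against 0.86 and 0.68 on the pRb-loss arrays and −0.24 and −0.26 on the p53-loss arrays. Trichohyalin (Tchh), which hardens the inner root sheath, scored −1.38 and −1.48 on the double-loss arrays, against 0.59 and 0.91 on the pRb-loss arrays and −0.31 and −0.13 on the p53-loss arrays. Their differences were −1.68 ± 0.087 for Krt35 and −1.70 ± 0.13 for Tchh.

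Keratin-associated proteins cross-link the keratins of the hair shaft. Of 26 measured members 14 were apart and lower (53.8%) and 1 higher, with a median difference of −0.88. The gap to the p53-loss arrays was small, with a median difference of −0.32, and that to the pRb-loss arrays large, with −1.51. Krtap3-1 scored −1.24 and −1.28 on the double-loss arrays, against 0.82 and 0.83 on the pRb-loss arrays and −0.49 and −0.55 on the p53-loss arrays. Its difference of −1.41 ± 0.024 (SE, adjusted p = 0.058) shared the smallest adjusted p with probe sets of Malat1, Gprc5d and Fnta, and its arrays of each genotype were nearly equal. Krtap4-2 differed by −1.22 ± 0.087 and Krtap5-2 by −1.48 ± 0.23. The 1 member that was higher, Krtap19-1, differed by 1.98 ± 0.63, while its second probe set was apart and lower. Members of this family are close in sequence and may be read by each other's probes, which makes values of single members uncertain.

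Many regulators of the follicle lay on the same side. Of 26 measured genes 12 were apart and lower (46.2%) and 1 higher, with a median difference of −1.16 and mean scores of −0.88 and −0.50 on the double-loss arrays, against 0.58 and 0.28 on the pRb-loss arrays and −0.023 and −0.082 on the p53-loss arrays. Msx2, a homeodomain factor of the hair matrix, scored −1.53 and −1.30 on the double-loss arrays, against 0.86 and 0.69 on the pRb-loss arrays and −0.36 and −0.15 on the p53-loss arrays. Sox9, needed for follicle stem cells and the outer root sheath, scored −1.26 and −1.45 on the double-loss arrays, against 0.29 and 0.84 on the pRb-loss arrays and −0.11 and −0.44 on the p53-loss arrays, and its second probe set was apart as well. Bmp4, a ligand made in the dermal papilla and hair matrix, scored −1.58 and −1.07 on the double-loss arrays, against 0.74 and 1.05 on the pRb-loss arrays and 0.28 and −0.38 on the p53-loss arrays. In these 3 genes the p53-loss arrays lay between the double loss and the pRb loss. The exception was Msx1, a paralogue of Msx2, which scored 0.90 and 0.82 on the double-loss arrays, against −1.12 and −0.028 on the pRb-loss arrays and −0.92 and −1.39 on the p53-loss arrays and had a difference of 1.73 ± 0.42. Its second probe set was not apart, with a difference of −0.18. Of the rest, the apart and lower members Dlx3, Padi3, Shh, Hoxc13, Lef1, Sox21, Cux1, Ptch1 and Wnt10a had gaps from 0.13 to 0.68, and 5 of the 6 probe sets of Cux1 were apart and lower.

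Wnt and Notch genes lay apart about as often as all genes. Of 36 measured, 3 were apart and higher (8.33%) and 5 lower (13.9%), beside 10.8% and 12.7% of all genes. The median difference was −0.10. It was 0.21 without array 1 and −0.50 without array 2 of the double loss, and −0.44 when the probe sets of a gene were averaged. The Notch effector Heyl scored −1.79 and −1.16 on the double-loss arrays, against 1.07 and −0.024 on the pRb-loss arrays and 0.94 and 0.43 on the p53-loss arrays, with 2 of 3 probe sets apart. Jag2, a Notch ligand, differed by −1.21 ± 0.33 and both of its probe sets were apart. Wnt7b, a Wnt ligand of the epidermis, scored 1.35 and 1.25 on the double-loss arrays, against −0.65 and −0.10 on the pRb-loss arrays and 0.068 and 0.36 on the p53-loss arrays, again with both probe sets apart but on the high side. Rbpj, the DNA-binding partner of Notch, differed by 1.33 ± 0.61, with its second probe set not apart.

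Genes of melanin synthesis were low in the double loss, and the single losses overlapped. Of 9 measured melanocyte markers 5 were apart and lower (55.6%) and 0 higher, with a median difference of −1.92. The markers averaged −1.30 and −0.53 on the double-loss arrays, against 0.20 and 0.71 on the pRb-loss arrays and 0.25 and 0.31 on the p53-loss arrays. The second double-loss array was nearer to the single losses than the first. All 5 encode proteins of the melanosome or of melanin synthesis: Pmel, Dct, Tyrp1, Oca2 and Tyr. Among the 4 markers that were not apart were the factors that specify the cell, Mitf and Sox10, with differences of 0.13 ± 0.40 and 0.012 ± 0.91. The rest of those 4 are not factors of this kind and lay lower without being apart. The list therefore does not split cleanly by kind of gene. An unadjusted p below 0.05 was reached by 4 on the low side and 0 on the high side, beside 8.29% and 6.26% of all genes. FVB mice are albino because their tyrosinase gene is defective, and their skin still holds melanocytes.

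The promoters of 3 of the pigment genes are shown because these genes were low together. Capitals mark the E-box CATGTG, a motif that MITF binds, searched on both strands, so that it reads CACATG where it lies on the other one. Dct lies on the minus strand at chr14:118052247-118052496, Tyrp1 on the plus strand at chr4:80833963-80834212 and Oca2 on the plus strand at chr7:56239509-56239758.
Dct: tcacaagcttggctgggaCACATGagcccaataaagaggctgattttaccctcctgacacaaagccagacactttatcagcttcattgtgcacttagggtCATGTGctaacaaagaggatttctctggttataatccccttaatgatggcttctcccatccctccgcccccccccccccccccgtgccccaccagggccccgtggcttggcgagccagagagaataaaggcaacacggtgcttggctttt
Tyrp1: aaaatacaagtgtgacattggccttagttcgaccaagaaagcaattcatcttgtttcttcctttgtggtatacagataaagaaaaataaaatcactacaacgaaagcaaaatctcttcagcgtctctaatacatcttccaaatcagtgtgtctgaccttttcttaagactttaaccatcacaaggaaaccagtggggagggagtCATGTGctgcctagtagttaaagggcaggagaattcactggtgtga
Oca2: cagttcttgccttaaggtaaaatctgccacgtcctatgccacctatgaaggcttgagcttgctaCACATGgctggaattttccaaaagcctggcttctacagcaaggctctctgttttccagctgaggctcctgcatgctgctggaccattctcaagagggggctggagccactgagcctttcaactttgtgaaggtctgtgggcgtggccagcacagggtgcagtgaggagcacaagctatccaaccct
Dct holds 2 matches, the match of Tyrp1 begins 46 bases before the start and that of Oca2 186 bases before. Of the 9 markers 5 were in the table and 4 of them (80%) held the motif, beside 12.24% of all promoters. Pmel is named only. The sequences are those of the reference genome and not of FVB.

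Pmel, the fibre protein on which melanin is laid down, scored −1.86 and −1.33 on the double-loss arrays, against 0.58 and 0.60 on the pRb-loss arrays and 0.53 and 0.62 on the p53-loss arrays, a difference of −2.18 ± 0.19 (SE, adjusted p = 0.17). Dct, dopachrome tautomerase, scored −1.85 and −1.33 on the double-loss arrays, against 0.43 and 0.41 on the pRb-loss arrays and 0.74 and 0.73 on the p53-loss arrays, a difference of −2.17 ± 0.18 (SE, adjusted p = 0.17). In both genes the 4 single-loss arrays lay within a narrow range, far above the double loss, as their choice by the widest gap favours. Tyrp1, the second tyrosinase-related enzyme, scored −1.76 and −1.30 on the double-loss arrays, against −0.14 and 0.99 on the pRb-loss arrays and 0.51 and 0.46 on the p53-loss arrays. All 3 of its probe sets were apart and lower, with differences of −1.98, −2.13 and −1.96. Oca2, a melanosomal membrane transporter, differed by −1.93 ± 0.30 (SE, adjusted p = 0.22), and Tyr, tyrosinase itself, by −1.92 ± 0.64 (SE, adjusted p = 0.36) with 3 of 3 probe sets apart.

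Many genes of mitosis scored lower with both proteins lost than with either. Of 48 measured genes of mitosis and G2/M, 17 were apart and lower (35.4%, beside 12.7% of all genes) and 2 higher. The median difference was −0.86, and the list averaged −0.37 and −0.59 on the double-loss arrays, against 0.23 and 0.25 on the pRb-loss arrays and 0.49 and 0.32 on the p53-loss arrays. The median difference was −0.94 from the pRb loss and −1.08 from the p53 loss. By the unadjusted p, 13 were below 0.05 on the low side and 0 on the high side, beside 8.29% and 6.26% of all genes. Without array 1 of the double loss the median was −1.40.

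Mki67, the proliferation antigen, scored −1.46 and −1.55 on the double-loss arrays, against 0.85 and 0.83 on the pRb-loss arrays and 0.099 and −0.038 on the p53-loss arrays. Its difference was −1.94 ± 0.058 (SE, adjusted p = 0.087). It was named for its wide gap, which on standardized scores favours a small spread within each genotype. Incenp, which localizes the Aurora B kinase, scored −1.61 and −1.51 on the double-loss arrays, against 0.98 and 0.55 on the pRb-loss arrays and 0.25 and 0.45 on the p53-loss arrays, and 2 of its 3 probe sets were apart. Cyclin A2 (Ccna2) scored −0.95 and −1.81 on the double-loss arrays, against 0.62 and 0.67 on the pRb-loss arrays and 1.33 and 0.41 on the p53-loss arrays, with both probe sets apart. Smc4, the condensin subunit that compacts chromosomes, differed by −1.99 ± 0.33 (SE, adjusted p = 0.23), and all 3 of its probe sets were apart and lower. Members that were not apart included Top2a (−0.026 ± 0.83), Bub1 (−0.15 ± 0.83) and Foxm1 (0.70 ± 1.15), so that much of the list did not separate.

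E2F targets and replication genes are those that pRb restrains before S phase. Of 46 measured E2F targets and replication genes, 4 were apart and higher (8.70%) and 7 lower (15.2%), beside 10.8% and 12.7% of all genes. The median difference was −0.13. That median was −0.44 without array 1 of the double loss, −0.32 when the probe sets of a gene were averaged and −0.068 with array medians set to 0. The mean of the list was 0.085 and −0.041 on the double-loss arrays, against 0.54 and 0.47 on the pRb-loss arrays and −0.052 and −0.069 on the p53-loss arrays, so that the pRb-loss arrays were the highest. Thymidine kinase Tk1 scored −0.90 and −1.29 on the double-loss arrays, against 1.56 and 0.16 on the pRb-loss arrays and 0.89 and 0.70 on the p53-loss arrays. Uhrf1, which maintains DNA methylation at the fork, scored −0.71 and −1.96 on the double-loss arrays, against 0.24 and 1.44 on the pRb-loss arrays and 0.054 and −0.084 on the p53-loss arrays, and both probe sets were apart. Cyclin E2 (Ccne2) was on the other side and scored 1.78 and 1.01 on the double-loss arrays, against −1.18 and 0.33 on the pRb-loss arrays and −0.28 and −0.10 on the p53-loss arrays. Rpa1, the large subunit of the single-strand binding complex, differed by 1.28 ± 0.28 with 1 of 2 probe sets apart, the other differing by −0.30. The rest of the apart members were Rrm1, Rfc3, Orc6, Rfc4 and Mcm2, which were lower, and Mcm6 and Rrm2, which were higher, with gaps from 0.01 to 0.35.

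Cyclins D1 and D2 were low on every probe set that measured them. Ccnd2, a regulatory partner of the kinases that phosphorylate pRb, was measured by 7 probe sets, and all 7 were apart and lower. On the probe set used Ccnd2 scored −1.60 and −1.41 on the double-loss arrays, against 0.83 and 0.81 on the pRb-loss arrays and 0.24 and 0.42 on the p53-loss arrays, a difference of −2.08 ± 0.094 (SE, adjusted p = 0.13). On the other 6 the difference lay between −2.17 and −1.17. Ccnd1 scored −1.82 and −0.98 on the double-loss arrays, against 1.0 and 0.81 on the pRb-loss arrays and −0.24 and −0.17 on the p53-loss arrays, and its 3 probe sets were all apart, with differences of −1.75, −1.55 and −1.60. Probe sets of the same gene share the same arrays and pools and are not separate animals. Cdk6, a kinase partner of the D cyclins, was on the other side with 1.83 ± 0.67. In all, 2 of 15 measured G1 cyclins, kinases and inhibitors were apart and higher (13.3%) and 3 lower (20%), beside 10.8% and 12.7% of all genes. The median difference was −0.15. It was 0.027 without array 2 of the double loss and −0.73 without array 2 of the pRb loss. Averaging the probe sets of a gene gave −0.33, and −0.51 was found without array 2 of the p53 loss.

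Of 10 measured pocket proteins, E2F factors and DP partners, 2 were apart and lower (20%, beside 12.7% of all genes) and 0 higher. Tfdp1, the main dimer partner of E2F factors, scored −1.13 and −1.20 on the double-loss arrays, against 1.09 and 1.67 on the pRb-loss arrays and −0.0049 and −0.20 on the p53-loss arrays. E2f3, an activating E2F, scored −0.97 and −1.25 on the double-loss arrays, against 1.28 and 0.90 on the pRb-loss arrays and 0.59 and −0.07 on the p53-loss arrays. Both were highest with the loss of pRb, with the p53 loss between, and they differed by −1.80 ± 0.22 and −1.78 ± 0.29. Over the list the median difference was −0.51.

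Few targets of p53 lay apart. Of 28 measured, 1 was apart and higher and 1 lower, 3.57% each, beside 10.8% and 12.7% of all genes. The p53-loss arrays also lack p53, so the rule does not pick genes changed by p53 loss alone. The median difference was 0.097 from the pRb loss and 0.013 from the p53 loss. From both it was 0.18, with medians from 0.021 (without array 1 of the double loss) to 0.24 over the alternatives. It was 0.026 without array 2 of the double loss, 0.041 without array 1 of the pRb loss and 0.086 without array 2 of it. Gadd45a, a growth arrest gene that stress also induces without p53, scored 1.40 and 1.06 on the double-loss arrays, against −0.77 and −0.30 on the pRb-loss arrays and −0.47 and −0.19 on the p53-loss arrays. Rrm2b, the p53-dependent ribonucleotide reductase subunit, differed by −1.58 ± 0.66. Of 21 apoptosis regulators 1 was apart and higher (4.76%) and 2 lower (9.52%), beside 10.8% and 12.7% of all genes. Bok, a pore-forming BCL2 relative, scored −2.15 and −0.79 on the double-loss arrays, against 0.39 and 0.82 on the pRb-loss arrays and 0.39 and 0.27 on the p53-loss arrays. Bid, which links death receptors to mitochondria, differed by 1.66 ± 0.75, and Bcl2l2, a survival protein, by −1.33 ± 0.56, while the second probe set of Bid and the other 3 of Bcl2l2 were not apart. Those 3 of Bcl2l2 differed by 1.31, −0.42 and −0.29, so its probe sets disagreed in direction. The median of that list was 0.21, −0.015 without array 2 of the double loss and 0.050 without array 1 of the pRb loss.

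Many spliceosome genes, which remove introns from RNA, were low. Of 33 measured spliceosome genes 17 were apart and lower (51.5%, beside 12.7% of all genes) and 1 higher, with a median difference of −1.33. The list averaged −0.69 and −0.95 on the double-loss arrays, against 0.32 and 0.26 on the pRb-loss arrays and 0.43 and 0.20 on the p53-loss arrays. Every single-loss array averaged above 0. Prpf8, the scaffold at the catalytic centre, scored −1.27 and −1.45 on the double-loss arrays, against 1.73 and 0.18 on the pRb-loss arrays and 0.42 and 0.12 on the p53-loss arrays. Prpf3, a protein of the U4/U6 particle, scored −1.37 and −1.42 on the double-loss arrays, against 0.84 and 0.093 on the pRb-loss arrays and 0.32 and 0.35 on the p53-loss arrays. Prpf19, the ubiquitin ligase of the complex named after it, differed by −2.08 ± 0.52, and all 3 of its probe sets were apart and lower. Snrpc, a protein of the U1 particle, differed by −1.99 ± 0.58. The 1 higher member, Snrpb2, had a gap of 0.01, and 2 of its 3 probe sets were apart and lower.

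A set of genes with varied functions was chosen by the rule that all probe sets of a gene lay apart and lower. The nucleolar protein Nop56 scored −1.31 and −1.16 on the double-loss arrays, against 1.07 and 1.30 on the pRb-loss arrays and 0.45 and −0.15 on the p53-loss arrays. The chromatin insulator protein Ctcf scored −1.75 and −1.21 on the double-loss arrays, against 0.40 and 0.62 on the pRb-loss arrays and 0.66 and 0.075 on the p53-loss arrays. The chaperonin subunit Cct2 scored −1.16 and −1.75 on the double-loss arrays, against 0.95 and 0.98 on the pRb-loss arrays and 0.22 and −0.32 on the p53-loss arrays, with 3 of 3 probe sets apart. These 3 genes were lowest with both losses. Psmc4, an ATPase of the proteasome, Cxxc1, which binds unmethylated CpG sites, Mpg, a DNA repair glycosylase, and Rcc2, a mitotic chromatin protein, differed by −1.83 ± 0.20, −1.65 ± 0.25, −2.0 ± 0.59 and −1.52 ± 0.17. Of 48 cytosolic ribosomal protein genes 13 were apart and lower (27.1%) and 2 higher, with a median difference of −0.35. It was −0.55 without array 2 of the double loss, −0.54 without array 1 of the pRb loss and −0.21 without array 2 of the p53 loss. Rpl38 scored −1.11 and −1.45 on the double-loss arrays, against 0.012 and 0.80 on the pRb-loss arrays and 1.06 and 0.58 on the p53-loss arrays. Rpl27, Rps6 and Rpl37 differed by −1.65 ± 0.46, −1.53 ± 0.24 and −1.50 ± 0.24, 1 other probe set of Rpl27 and of Rps6 not being apart. Ribosomal protein genes have many processed copies that may bind the same probes.

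**Figure D3:**
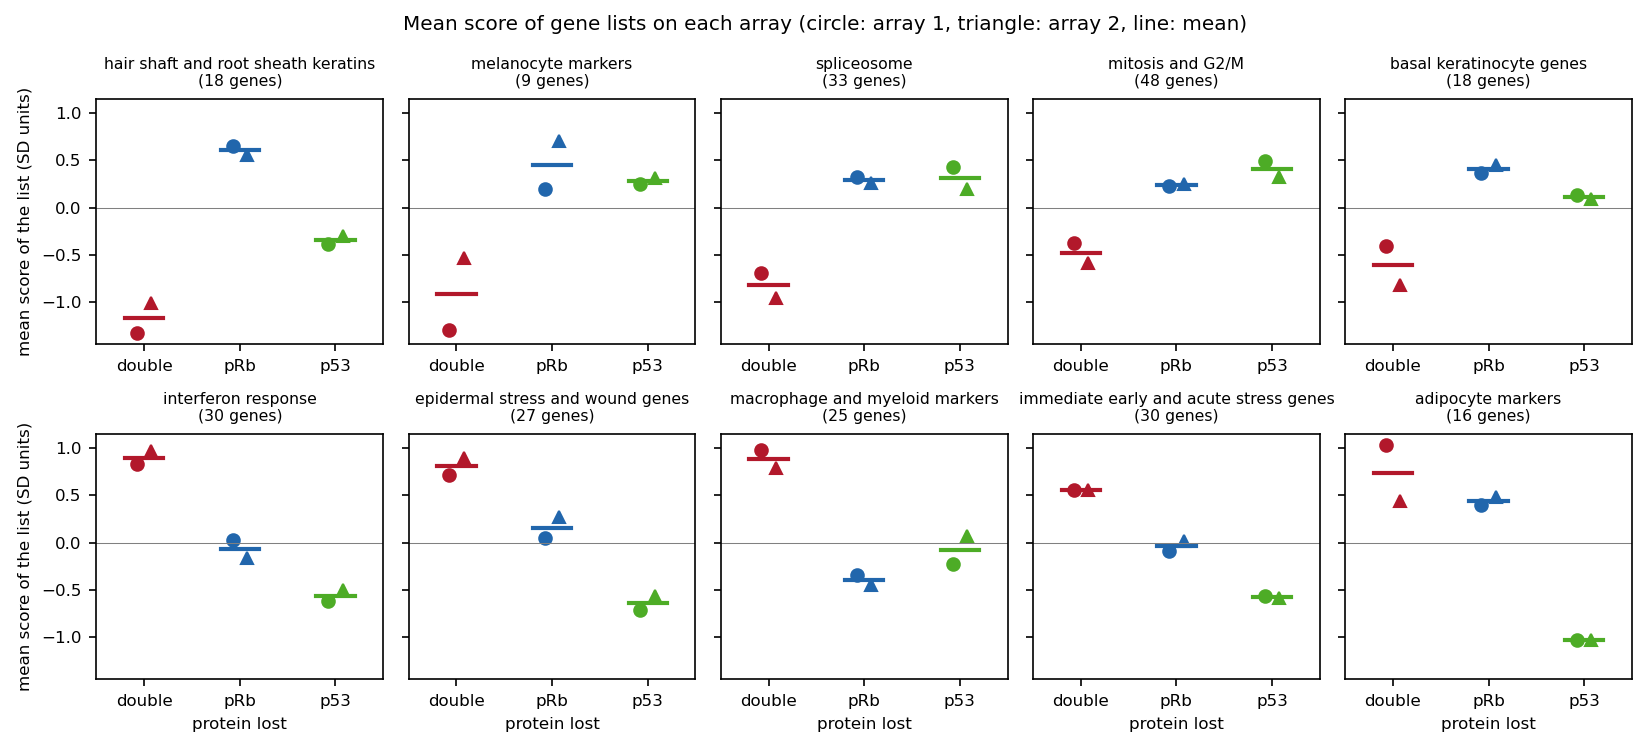
Mean score of the measured genes of 10 lists (y axis, in SD over the 8 arrays) on each array of the double loss, the pRb loss and the p53 loss; circles are array 1, triangles array 2 and lines the mean of the 2. In the upper row the double-loss arrays are lowest (hair shaft and root sheath keratins −1.32 and −1.01), and in the lower row they are the highest, except that 1 double-loss array of the adipocyte panel lies between the pRb-loss arrays (interferon response 0.83 and 0.96).

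Of 18 measured genes of basal keratinocytes 6 were apart and lower (33.3%) and 1 higher, with a median difference of −1.0, or −0.65 when the probe sets of a gene were averaged. Krt15, a keratin of basal and follicle bulge cells, scored −1.32 and −1.64 on the double-loss arrays, against 0.60 and 0.25 on the pRb-loss arrays and 0.69 and −0.06 on the p53-loss arrays. Integrin alpha 6 (Itga6), which anchors basal cells to the basement membrane, scored −0.95 and −0.68 on the double-loss arrays, against 0.59 and 1.54 on the pRb-loss arrays and 0.50 and 0.89 on the p53-loss arrays. Its second probe set was not apart and differed the other way, by 0.71. Fgfr2, the receptor for keratinocyte growth factor, differed by −1.34 ± 0.30 with both probe sets apart, and the laminin chain Lama3 by −1.35 ± 0.70. The 1 higher member was Cd44, with 1.17 ± 0.45. The main basal keratins gave −1.04 ± 0.32 for Krt5 and 0.34 ± 0.65 for Krt14, neither apart.

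Of 30 suprabasal keratins and cornified envelope genes 6 were apart and higher (20%) and 4 lower (13.3%), with a median difference of 0.28, which was 0.029 without array 1 and 0.62 without array 2 of the double loss. Krtdap, a secreted protein of differentiating keratinocytes, scored 1.55 and 1.49 on the double-loss arrays, against −0.25 and −0.031 on the pRb-loss arrays and −0.97 and −1.01 on the p53-loss arrays, a difference of 2.08 ± 0.08 (SE, adjusted p = 0.12). Repetin (Rptn), a cornified envelope protein, differed by 1.27 ± 0.089, with 2 of 3 probe sets apart. The late cornified envelope genes Lce1i and Lce1h were on the other side, with −1.78 ± 0.15 and −1.77 ± 0.21. They were high with p53 lost, as Lce1i scored −1.12 and −1.39 on the double-loss arrays, against −0.23 and −0.33 on the pRb-loss arrays and 1.48 and 1.16 on the p53-loss arrays. Neighbouring members of this cluster are alike in sequence and may share probes.

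Enzymes of the lipid barrier included members on either side. Of 15 measured 4 were apart and higher (26.7%) and 2 lower, with a median difference of 0.71, 1.54 from the p53 loss and −0.17 from the pRb loss. Without array 2 of the double loss it was 1.30. The acid sphingomyelinase Smpd1 scored 1.77 and 0.93 on the double-loss arrays, against −1.43 and −0.41 on the pRb-loss arrays and −0.75 and −0.31 on the p53-loss arrays. The epidermal lipoxygenases Alox12b and Aloxe3, which act in sequence on barrier ceramides, differed by 1.65 ± 0.29 and 1.78 ± 0.41. Elovl3, an elongase of sebaceous gland and follicle, was lower by the same measure, at −1.90 ± 0.29. Of 7 connexins 1 was apart and lower (14.3%) and 0 higher, beside 12.7% and 10.8% of all genes. This member, Gjb2, a gap junction protein of epidermis and inner ear, scored −1.45 and −1.0 on the double-loss arrays, against 0.44 and 0.76 on the pRb-loss arrays and −0.45 and −0.57 on the p53-loss arrays. The median over the connexins was −0.91, −0.36 without array 2 of the double loss and −0.41 without array 1 of the pRb loss.

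Many genes of epidermal stress and wounding were high with both proteins lost. Of 27 measured 15 were apart and higher (55.6%, beside 10.8% of all genes) and 1 lower, with a median difference of 1.41. The mean scores were 0.72 and 0.89 on the double-loss arrays, against 0.043 and 0.27 on the pRb-loss arrays and −0.71 and −0.57 on the p53-loss arrays. Here the pRb-loss arrays lay between, with median differences of 0.77 from the pRb loss and 1.78 from the p53 loss. By the unadjusted p, 14 were below 0.05 on the high side and 1 on the low side, beside 6.26% and 8.29% of all genes.

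Il1f8 and Il1f6, the annotation's older symbols for interleukin-36 cytokines of inflamed epidermis, had wide gaps. Il1f8 scored 1.50 and 1.61 on the double-loss arrays, against −0.75 and −0.20 on the pRb-loss arrays and −0.55 and −0.56 on the p53-loss arrays, a difference of 2.07 ± 0.20 (SE, adjusted p = 0.17). Il1f6 differed by 1.85 ± 0.25 (SE, adjusted p = 0.2). Krt6b, a keratin of wounded and rapidly growing epidermis, scored 1.74 and 1.32 on the double-loss arrays, against −0.18 and −0.74 on the pRb-loss arrays and −0.74 and −0.91 on the p53-loss arrays, a difference of 2.17 ± 0.25 (SE, adjusted p = 0.19). Its partner Krt16 differed by 1.74 ± 0.12 (SE, adjusted p = 0.16), whereas Krt6a and Krt17 were not apart, at 0.55 ± 0.34 and −0.77 ± 0.49. Sprr2f, a small proline-rich envelope protein, scored 1.45 and 1.31 on the double-loss arrays, against −1.04 and −0.11 on the pRb-loss arrays and −0.27 and −1.01 on the p53-loss arrays. The alarmin S100a8 scored 1.51 and 1.38 on the double-loss arrays, against −0.83 and −0.89 on the pRb-loss arrays and 0.15 and 0.25 on the p53-loss arrays. The 1 lower member was Sprr1a, with −1.55 ± 0.16.

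Many immediate early genes were high as well. Of 30 measured 14 were apart and higher (46.7%) and 1 lower (Ier5), with a median difference of 1.12 and mean scores of 0.56 and 0.56 on the double-loss arrays, against −0.085 and 0.02 on the pRb-loss arrays and −0.57 and −0.59 on the p53-loss arrays. Atf3, a stress-induced transcription factor, scored 2.0 and 1.12 on the double-loss arrays, against −0.66 and −0.51 on the pRb-loss arrays and −0.66 and −0.57 on the p53-loss arrays. Dusp1, a phosphatase that switches off MAP kinases, scored 1.73 and 1.40 on the double-loss arrays, against −0.42 and −0.40 on the pRb-loss arrays and −0.50 and −0.11 on the p53-loss arrays. Fos, a subunit of AP-1, scored 1.67 and 1.43 on the double-loss arrays, against −0.89 and 0.019 on the pRb-loss arrays and −0.66 and −0.78 on the p53-loss arrays. In all 3 every single-loss array lay more than 1 SD below both double-loss arrays. The list was not uniform: Egr1 differed by −0.093 ± 0.54 and Jun by −0.28 ± 0.56, neither apart.

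Many interferon response genes were high. Of 30 measured 14 were apart and higher (46.7%) and 0 lower, with a median difference of 1.44. The list averaged 0.83 and 0.96 on the double-loss arrays, against 0.031 and −0.16 on the pRb-loss arrays and −0.62 and −0.51 on the p53-loss arrays, the p53 loss being lowest. By the unadjusted p, 11 were below 0.05, all on the high side, beside 6.26% of all genes on that side. Gbp2, a guanylate-binding GTPase that interferon gamma induces, lies on the plus strand, and the 250 bases before its start at chr3:142620413-142620662 are shown because its motif recurs among these genes. Capitals mark the core of the interferon-stimulated response element, searched as GAAA, 2 bases of any kind and GAAA again on both strands, here on the other strand and 59 bases before the start.
Gbp2: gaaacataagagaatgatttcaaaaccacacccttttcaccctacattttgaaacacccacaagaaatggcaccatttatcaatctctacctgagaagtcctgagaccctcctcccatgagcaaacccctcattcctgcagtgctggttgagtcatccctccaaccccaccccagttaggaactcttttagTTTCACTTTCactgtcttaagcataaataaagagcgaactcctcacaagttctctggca
Of the 30 genes 24 were in the table and 12 of them (50%) held this motif, beside 3.038% of all promoters. Gbp2 scored 1.57 and 1.39 on the double-loss arrays, against −0.15 and −0.12 on the pRb-loss arrays and −0.88 and −1.17 on the p53-loss arrays, a difference of 2.06 ± 0.12 (SE, adjusted p = 0.13), with both probe sets apart. Iigp1, an immunity-related GTPase, scored 1.65 and 1.43 on the double-loss arrays, against −0.40 and 0.013 on the pRb-loss arrays and −0.90 and −0.96 on the p53-loss arrays, also with both probe sets apart. Ifitm3, a membrane protein that blocks viral entry, differed by 2.09 ± 0.46 and Oasl2, a relative of the 2′-5′ oligoadenylate synthetases, by 1.96 ± 0.43. Not all members followed: Irf7 differed by 0.22 ± 0.98, Bst2 by −0.22 ± 0.72 and Tap1 by −0.19 ± 0.70, none apart.

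Of 12 measured genes of antigen presentation by MHC class II, which shows peptides to helper T cells, 4 were apart and higher (33.3%) and 0 lower, with a median difference of 1.40, which was 0.95 without array 1 of the double loss. Cd74, the invariant chain, scored 1.63 and 1.47 on the double-loss arrays, against −0.58 and −0.50 on the pRb-loss arrays and −0.047 and −0.22 on the p53-loss arrays, a difference of 1.89 ± 0.087 (SE, adjusted p = 0.13). The class II chains H2-Aa and H2-Ab1 differed by 2.0 ± 0.26 and 1.42 ± 0.32, and all 3 probe sets of H2-Ab1 but 1 of 2 of H2-Aa were apart and higher. H2-DMb2, a chain of the peptide exchanger, scored 0.63 and 1.91 on the double-loss arrays, against 0.56 and −0.95 on the pRb-loss arrays and −0.90 and −0.87 on the p53-loss arrays, which barely separated. Class II genes resemble each other, and H2-Eb1 gave −0.033 ± 0.57.

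Many markers of myeloid cells were high on the same arrays. Of 25 measured macrophage and myeloid markers 13 were apart and higher (52%) and 0 lower, with a median difference of 1.27. Their mean score was 0.98 and 0.79 on the double-loss arrays, against −0.34 and −0.45 on the pRb-loss arrays and −0.22 and 0.074 on the p53-loss arrays. Cd14, the co-receptor for bacterial lipopolysaccharide, scored 1.57 and 1.48 on the double-loss arrays, against −1.04 and −0.081 on the pRb-loss arrays and −0.45 and −0.17 on the p53-loss arrays. Lysozyme Lyz2 scored 1.36 and 1.67 on the double-loss arrays, against −0.094 and −0.94 on the pRb-loss arrays and −0.34 and −0.055 on the p53-loss arrays. C1qa, a chain of complement C1q made by macrophages, scored 1.21 and 1.70 on the double-loss arrays, against 0.23 and −0.42 on the pRb-loss arrays and −1.32 and −0.61 on the p53-loss arrays. The signal-regulatory receptor Sirpa differed by 1.89 ± 0.21 (SE, adjusted p = 0.18) with 2 of 3 probe sets apart. The median without array 1 of the double loss was 0.91. Markers of the cell that were not apart included Cd68 (0.85 ± 0.69), Itgam (1.29 ± 1.0) and Laptm5 (0.25 ± 0.76). The part of myeloid cells in the interferon, class II and stress gene results was not tested.

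Of 12 mast cell markers 1 was apart and higher (8.33%) and 0 lower, beside 10.8% and 12.7% of all genes. The member was Ms4a2, a chain of the IgE receptor, with 1.74 ± 0.70. The median difference of the list was −0.39 from the p53 loss and 1.08 from the pRb loss, and 0.50 from both, or 0.31 without array 2 of the pRb loss. Of 10 T cell markers 1 was apart and higher and 1 lower (10% each), both below the shares of all genes. Cd5 was higher at 1.79 ± 0.43 and Thy1 lower at −0.92 ± 0.47. The median over the T cell list was 0.57, or 0.10 without array 2 of the double loss.

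Adipocyte markers were higher mainly against the loss of p53. Of 16 measured 6 were apart and higher (37.5%) and 0 lower. The median difference was 2.13 from the p53 loss and 0.10 from the pRb loss. The list averaged 1.03 and 0.44 on the double-loss arrays, against 0.39 and 0.48 on the pRb-loss arrays and −1.02 and −1.03 on the p53-loss arrays, so that double and pRb loss overlapped. Thrsp, a regulator of fat synthesis, scored 1.88 and 1.22 on the double-loss arrays, against −0.13 and −0.31 on the pRb-loss arrays and −0.61 and −0.89 on the p53-loss arrays, with both probe sets apart. The amine oxidase Aoc3 differed by 1.82 ± 0.52 and lipoprotein lipase Lpl by 1.87 ± 0.34, both probe sets of Lpl being apart. Ucp1, the uncoupling protein of brown fat, had another order and scored 1.35 and 1.12 on the double-loss arrays, against −1.01 and −1.06 on the pRb-loss arrays and 0.53 and 0.59 on the p53-loss arrays, the pRb loss being lowest.

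Of 74 oxidative phosphorylation subunits 15 were apart and higher (20.3%) and 7 lower (9.46%), with a median difference of 0.08 that was 0.33 without array 2 of the double loss and −0.16 without array 2 of the pRb loss, and was −0.0017 without array 1 of the p53 loss. Cytochrome oxidase subunit Cox6a1 scored 1.39 and 1.64 on the double-loss arrays, against −1.27 and −0.63 on the pRb-loss arrays and −0.45 and −0.24 on the p53-loss arrays. Its second probe set was not apart and differed the other way, by −0.42. Cox7a1, the form of heart, skeletal muscle and brown fat, scored 1.39 and 1.33 on the double-loss arrays, against 0.12 and 0.24 on the pRb-loss arrays and −1.09 and −0.93 on the p53-loss arrays. Uqcrc1 and Uqcr10, subunits of complex III, differed by 2.03 ± 0.38 and 1.97 ± 0.39, 1 of the 3 probe sets of Uqcr10 not being apart. These 4 had the widest gaps of the list and were all on the high side, and the rest of the 15 higher members are not named. The 7 lower members were subunits of complex I and of ATP synthase: Ndufb7, Ndufa12, Ndufa2, Ndufa6, Atp5g1, Atp5h and Atp5g2. The complexes are therefore not contrasted here.

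Skeletal muscle, which lies under the skin, had 3 of 39 markers apart and higher (7.69%) and 6 lower (15.4%), beside 10.8% and 12.7% of all genes. The median difference was −0.60. The delta subunit of the acetylcholine receptor, Chrnd, scored 1.56 and 1.40 on the double-loss arrays, against −0.74 and −0.36 on the pRb-loss arrays and 0.18 and −0.11 on the p53-loss arrays. Ucp3, the uncoupling protein of muscle, differed by 1.42 ± 0.11 with both probe sets apart. The myosins Myh8, of the perinatal form, and Myh7, of the slow form, lay on the other side with −1.78 ± 0.64 and −1.93 ± 0.62. For both the second double-loss array was much lower than the first, as Myh7 scored −0.56 and −2.05 on the double-loss arrays, against 1.41 and 0.54 on the pRb-loss arrays and 0.41 and 0.13 on the p53-loss arrays.

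Dermal genes lay apart on both sides, little more often than all genes. Of 20 fibroblast and collagen markers 3 were apart and higher (15%) and 4 lower (20%), beside 10.8% and 12.7% of all genes. The median difference was −0.13. It was −0.51 without array 1 and 0.31 without array 2 of the double loss. Without array 1 of the pRb loss it was 0.15 and without array 2 of it 0.012. Averaging the probe sets of a gene gave 0.20. The collagen chain Col1a1 scored −1.49 and −1.29 on the double-loss arrays, against 1.03 and 1.29 on the pRb-loss arrays and 0.36 and −0.27 on the p53-loss arrays, though only 1 of its 2 probe sets was apart. The other probe set of Col1a1 lay on the opposite side, with 0.81 and 1.11 on the double-loss arrays and a difference of 1.18. Elastin (Eln) differed by −2.04 ± 0.48, both probe sets apart. Mfap5, a protein of elastic microfibrils, scored 1.44 and 1.28 on the double-loss arrays, against 0.11 and −0.81 on the pRb-loss arrays and −0.049 and 0.28 on the p53-loss arrays, and the fibulin Fbln1 differed by 1.77 ± 0.71. Both genes had all of their probe sets apart on the high side.

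Of 18 matrix remodelling genes 3 were apart and higher and 3 lower (16.7% each), beside 10.8% and 12.7% of all genes. The median difference was 0.21. It was −0.22 without array 2 of the double loss, 0.34 without array 1 of it and 0.50 without array 1 of the p53 loss. Timp1, an inhibitor of matrix metalloproteinases, scored 1.06 and 1.45 on the double-loss arrays, against 0.36 and −0.15 on the pRb-loss arrays and −1.27 and −1.30 on the p53-loss arrays. Its relative Timp3 was on the other side at −0.89 ± 0.34 with 4 of 4 probe sets apart. Tfpi2, a protease inhibitor of the matrix, differed by 2.02 ± 0.19 and the matrix protein Tgfbi by 1.78 ± 0.23, with 1 of its 4 probe sets apart. The others of Tgfbi differed by 0.93, −0.17 and 0.98.

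Of 15 endothelial markers 3 were apart and higher (20%) and 1 lower (6.67%), beside 10.8% and 12.7% of all genes. The median difference was 0.87, or 0.52 without array 1 of the p53 loss. The tight junction protein Cldn5 scored 1.49 and 1.41 on the double-loss arrays, against 0.42 and −0.17 on the pRb-loss arrays and −1.02 and −0.53 on the p53-loss arrays. The VEGF receptor Kdr and the adhesion molecule Esam differed by 1.33 ± 0.49 and 1.31 ± 0.93, and Ramp2, part of the adrenomedullin receptor, by −1.57 ± 0.59. Of 5 red blood cell markers 1 was apart and lower (20%) and 0 higher. The lower member was Alas2, the first enzyme of haem synthesis in erythroid cells, at −1.90 ± 0.58. Over that list the median was −0.46, 0.014 when the probe sets of a gene were averaged and −0.83 without array 1 of the pRb loss. Of 7 nerve and Schwann cell markers 1 was apart and higher, S100b, and 1 lower, Pmp22 (14.3% each), near the shares of all genes. S100b, which melanocytes and Langerhans cells also make, scored 1.40 and 1.55 on the double-loss arrays, against −0.049 and −0.28 on the pRb-loss arrays and −0.76 and −0.095 on the p53-loss arrays, and both probe sets were apart. The median of the nerve list was −0.62, −0.048 without array 1 of the double loss and −0.14 without array 1 of the pRb loss.

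A pair of further genes had all of their probe sets apart on the high side. Cysrt1, a cysteine-rich protein of the epidermis, scored 1.82 and 1.26 on the double-loss arrays, against 0.02 and −0.53 on the pRb-loss arrays and −0.88 and −0.61 on the p53-loss arrays. Glrx, glutaredoxin, scored 1.40 and 1.39 on the double-loss arrays, against 0.48 and −0.91 on the pRb-loss arrays and −0.17 and −0.21 on the p53-loss arrays, a narrower separation with a difference of 1.60 ± 0.49.

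Genes with several probe sets can be described by how their other probe sets lay on the same 6 arrays. This is no separate check, since the rule ran over all probe sets. The 475 higher genes with more than 1 probe set had 733 others. Of these, 175 (23.9%) were apart and higher, beside 9.65% of the other probe sets of all genes, and 33 (4.50%) were apart and lower. The 669 lower genes had 1108 others, of which 351 (31.7%) were apart and lower, beside 14.8%, and 35 (3.16%) apart and higher. The sign of the difference was shared by 66.7% of the others of higher genes and 75.5% of those of lower genes. All probe sets were apart in the same direction in 96 higher and 159 lower genes. The other genes had at least 1 probe set that was not apart in that direction.

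**Figure D4:**
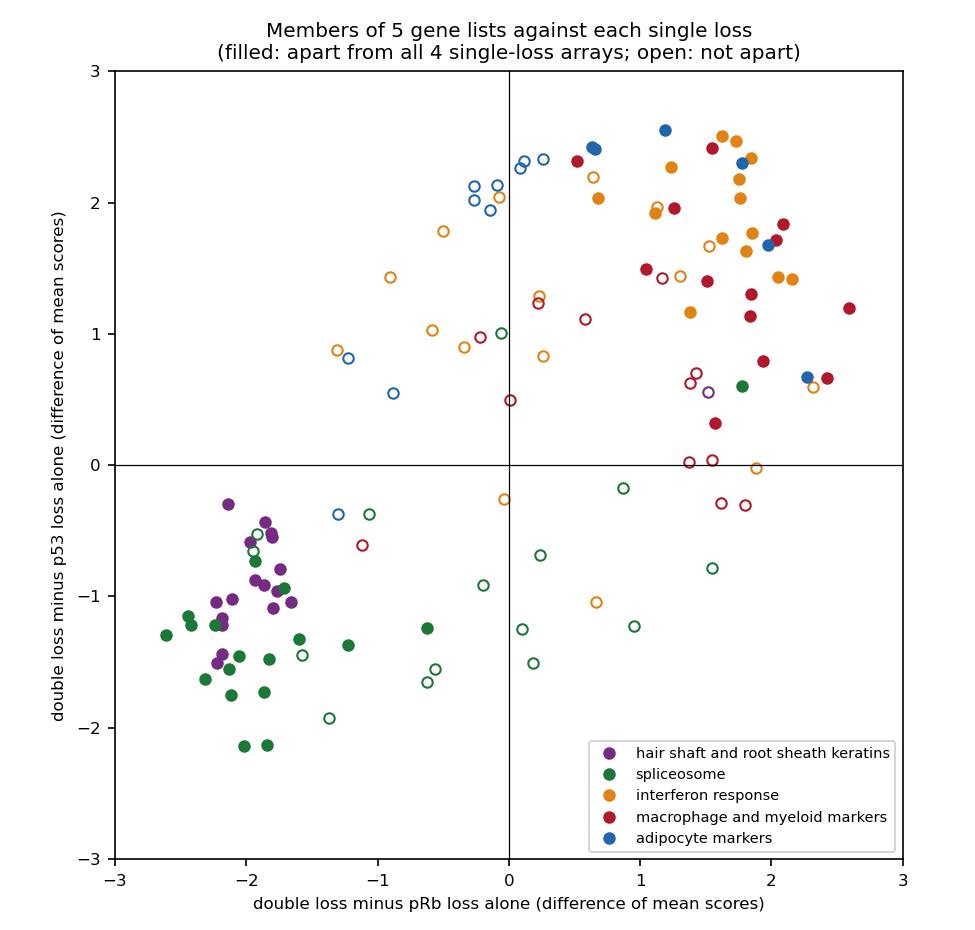
Double loss minus pRb loss (x axis) against double loss minus p53 loss (y axis), each a difference of mean scores in SD, for the genes of 5 lists; filled points are genes apart from all 4 single-loss arrays and open points genes that are not. Hair shaft and root sheath keratins lie far to the left and nearer to 0 on the y axis (median differences −1.90 and −0.94), and adipocyte markers high on the y axis and around 0 on the x axis (0.100 and 2.13).

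The choice of members did not fix which single loss lay nearer. Among lower members, both p53-loss arrays were nearer to the double loss than both pRb-loss arrays in 1264 (41.2%), and the reverse held in 328 (10.7%). Among higher members the counts were 688 (28.9%) with the p53 loss nearer and 460 (19.3%) with the pRb loss nearer. Over all probe sets, both p53-loss arrays were below both pRb-loss arrays in 31.8% and above them in 22.6%. On the probe sets used, 17 of 17 hair keratins and 14 of 15 keratin-associated proteins that were apart had the p53 loss nearer. In the stress and wound list the pRb loss was nearer in 8 members and the p53 loss in 4, and in the interferon list the counts were 6 and 1. Both differences share the double-loss arrays, so they are given side by side and not as a relation.

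The control arrays, used in no choice, lay on the single-loss side of both double-loss arrays in 1776 of the higher members (74.6%) and 2298 of the lower (74.9%). Over all probe sets those shares were 25% and 26.2%. Members were chosen for extreme double-loss scores, which bears on both shares. Hair shaft and root sheath keratins averaged −1.32 and −1.01 on the double-loss arrays and 0.84 and 0.96 on the control arrays, so that the control arrays were above the pRb-loss arrays. The interferon list averaged 0.83 and 0.96 with both proteins lost and −0.14 and −0.39 in control skin.

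By chromosome, the share of genes apart and lower was 16.9% on chromosome 11 (176 of 1041 genes) and between 9.52% and 14.3% on each other autosome. What made chromosome 11 differ was not tested. Higher genes made up between 7.63% and 14.0% of each autosome. On the X chromosome 12.4% of 402 genes were higher and 10.2% lower.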

How the data were processed

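Whole skin of newborn FVB mice was measured on 8 arrays of 22690 probe sets, 2 for each of 4 genotypes, each array carrying RNA pooled from 3 animals. RMA is the only tool named in the submitters' processing notes, and no version is given there. The deposited scores had been standardized by the authors for each probe set over the 8 arrays: all 22690 probe sets have mean 0 and SD 1 within 1e-06, as tested on the file. Scores ran from −2.43 to 2.45. Whether logs were taken before that step is not stated. Standardizing leaves the order of arrays within a probe set as it was and removes every level and fold.

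The 64 array controls were left out of the test. Of the probe sets, 20393 carried 1 gene symbol, 691 several and 1606 none, and 20364 matched RefSeq on GRCm38.p6. For each of 12393 genes, 4956 of them with several probe sets, the probe set used was chosen by its suffix and then its lowest ID. limma 3.58.1 in R 4.3.3 fitted 3 group means to the 6 arrays of the compared genotypes, without moderation of variances (3 residual degrees of freedom), and adjusted p-values by Benjamini-Hochberg over 22626 probe sets at 0.05. Tables and figures used Python 3.11.15 with pandas 2.3.3, numpy 2.4.6 and matplotlib 3.10.9. On data simulated for this comparison over 22626 probe sets, the test called 4% of changes of 5 within-group SD, 8% of 10, 60% of 20 and 100% of 40, with 4 false calls. The moderated test called 0% at each size. The simulation changed few of the probe sets, in normal noise independent between probe sets. The shares called depend on how many change, so they are not rates for these data. The number of arrays limits the precision.

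Genes with values were named by rule: Rb1, the 12 widest gaps each way with all probe sets on 1 side, 8 each way with all probe sets apart, and the 4 widest gaps of each list. Other genes were named after their values were seen. The members and lists were chosen with earlier results of these data known. The p53 gene was not analysed here. The alternatives were the moderated statistic, all 8 arrays in the fit, the 4 single-loss arrays as 1 group, replicate number as a block, quantile normalization, array medians set to 0, 1 probe set or the mean of the probe sets per gene, a gap of 0.5, and leaving out each array.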

Additional observations from a re-analysis of the deposited data

Results flagged for a closer look

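In 6 of 139 named genes, 1 of the 4 single-loss arrays lay far from the other 3. Among 4 values of the same kind chance gives such a gap in about 1 group in 20, and 6 of 139 does not exceed that rate. The rate is only a rough guide here. These 4 arrays hold 2 genotypes, and the genes were chosen on the same values. Uty scored −1.17 on array 2 of the p53 loss, below the other single-loss arrays. Cxxc1 scored 0.95 on array 2 of the pRb loss. Bcl2l2 scored 0.80 on array 1 of the pRb loss. Lama3 scored 1.97 on array 1 of the p53 loss. Ifitm3 scored −1.56 on that same array. H2-DMb2 scored 0.56 on array 1 of the pRb loss, the array that set its narrow gap to the double loss.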

How the results depend on the processing

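No probe set passed the adjusted threshold in the 6-array fit. The 4 single-loss arrays as 1 group, quantile normalization and the fit with replicate number as a block also called 0. The moderated statistic called 0 too, which cannot be read, because it called 0% even at changes of 40 within-group SD. Whether replicate numbers pair the arrays stays undecided. Deviations of same-numbered arrays of different genotypes correlated at r = −0.16, 0.20 and −0.069, the 0.20 being between the double loss and the p53 loss. With all 8 arrays in the fit 30 were called, 14 higher and 16 lower, among them Bbox1, Art3, Agpat5, Krtdap, Cd74 and Ucp1 higher and Hhip, Tnmd and Krt35 lower. The 2 control arrays add residual degrees of freedom there. With array medians set to 0, 2 were called, Pla2g2f higher and Pdap1 lower. With 1 probe set per gene or the mean of the probe sets of a gene, 3 were called, Fnta higher and Gprc5d and Krtap3-1 lower, with fewer features tested. Leaving out single arrays gave 0 to 3 calls, the 3 without array 2 of the double loss being Pcdh18 higher and Klhdc3 and Fut8 lower. Genes named only here were chosen after their values were seen.

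Counts of probe sets apart were 2358 higher and 2645 lower with quantile normalization and 2642 and 2868 with array medians set to 0. The excess of lower members was smaller in both than in the main counts. The counts were 1343 higher and 1580 lower with 1 probe set per gene, 1358 and 1678 with the gene mean, and 1050 and 1392 with a gap of at least 0.5. Leaving out single arrays gave 2874 to 5989 higher and 3720 to 5722 lower, the rule being met more often by fewer arrays. Of 1946 values of named genes under the alternatives, 0 were reversed, 1935 kept their side of the threshold and 11 passed it. All of these genes but Rb1 were chosen for lying apart on these arrays. Leaving out an array cannot reverse such a gene, so the 0 was largely fixed by the choice. Of 288 list medians 76 moved beyond the spread, and 11 in 7 of 32 lists changed sign. The cause was not tested. Scores without level limit all results to differences within a probe set.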
